A study of Mus musculus with 12 samples.

Results

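The 10 mouse genes described here make, control, break down or use polyamines. They are Odc1, Amd1, Srm and Sms for synthesis, the antizymes Oaz1 and Oaz2 with the antizyme inhibitor Azin1, Sat1 and Smox for breakdown, and Dhps, which uses spermidine. They were chosen by gene name, 10 of 55487 features in the table, and all 10 passed the filter on low values. RNA was sequenced from bulk natural killer (NK) cells, lymphocytes that secrete interferon gamma and kill target cells. All 12 libraries came from the strain B6.129S4-Ifngtm3.1Lky/J with genotype mut/mut, in which a yellow fluorescent protein (YFP) reports on the interferon gamma gene Ifng, and all sample titles carry "HD IL-15". One group of 4 libraries was unstimulated and carries no labelled time, so whether its time in culture matched that of treated cells is not known. The other 2 groups, of 4 libraries each, were treated with anti-NK1.1, an antibody to an activating NK receptor, with a labelled time of 6 hours, and differed in the reporter: YFP- or YFP+. The libraries carry the labels f2, m2, m3 and m4 in every group. The labels give no age and do not say whether the libraries came from separate mice, so the p-values measure only the spread between these samples, which may be technical. YFP- and YFP+ name a reporter state within treated cells, not 2 treatments, and no YFP+ group without anti-NK1.1 was analysed here.

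Polyamines are small positively charged molecules that bind nucleic acids and are needed for translation and growth. Ornithine decarboxylase (Odc1) makes putrescine, and spermidine synthase (Srm) and spermine synthase (Sms) extend it with aminopropyl groups supplied through S-adenosylmethionine decarboxylase (Amd1). Antizymes bind ornithine decarboxylase, send it to the proteasome and limit polyamine uptake, and the antizyme inhibitor, a relative of the enzyme without its activity, takes antizyme away from it. Sat1 acetylates spermidine and spermine for export or oxidation, Smox oxidizes spermine back to spermidine, and Dhps transfers part of spermidine to the translation factor eIF5A as hypusine. Lymphocytes are known to raise polyamine synthesis when they are activated.

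The antizymes are shown first in sequence because the RNA levels below do not measure their main control step. Antizyme is translated in full only when ribosomes shift frame at an early stop codon, a shift that polyamines are known to favour. In GENCODE M21 the coding sequence of 3 Oaz1 transcripts leaves out 1 base at chromosome 10, position 80828295, and that of 2 Oaz2 transcripts leaves out 1 base at chromosome 9, position 65686272. Both bases are in coding exons on the plus strand of GRCm38. The 29 bases around each follow, 5′ to 3′, with the stop codon whose first base is left out in capitals.
Oaz1, chr10:80828281-80828309: ctcggtggtgctccTGAtgtccctcaccc
Oaz2, chr9:65686258-65686286: ctctgtggtgctccTGAtgcccctcaccc
The stretches were identical at 27 of 29 bases.

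Promoter sequence is shown for Odc1 and Sat1, one of the genes that rose and one that fell in treated cells. The stretches end just before the gene starts of GENCODE M21 and come from RefSeq windows of GRCm38.p6; capitals mark the GC box GGGCGG on either strand.
Odc1, chr12:17544623-17544793, plus strand: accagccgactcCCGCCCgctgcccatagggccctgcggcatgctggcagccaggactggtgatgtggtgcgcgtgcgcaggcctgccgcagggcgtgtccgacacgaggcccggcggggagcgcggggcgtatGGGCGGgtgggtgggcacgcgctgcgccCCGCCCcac
Sat1, chrX:155216450-155216699, minus strand: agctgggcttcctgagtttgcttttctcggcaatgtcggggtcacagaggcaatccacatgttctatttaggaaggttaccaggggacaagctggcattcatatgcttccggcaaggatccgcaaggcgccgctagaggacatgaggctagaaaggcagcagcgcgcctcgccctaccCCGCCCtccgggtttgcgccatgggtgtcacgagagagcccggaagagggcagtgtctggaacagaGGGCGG
Windows of 250 bases before the RefSeq starts were held for 8 of the 10 genes (9 windows; Srm and Azin1 had none). GGGCGG, read on both strands with overlapping matches counted, was found in 6 of the 9 windows, against 32.7% of 32851 windows of all genes. The E-box CACGTG, the letters that Myc with its partner is known to bind, was in 1 of 9, an Sms window, against 6.02%. The cAMP response element TGACGTCA was in 0 of 9, against 1.55%, and CCAAT was in 2 of 9, the Oaz1 window and an Sms window, against 33.8%. These are matches of letters only, and sequence after the starts or farther upstream was not searched. A site outside the windows, in Odc1 or another gene, would not be found.

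The libraries held 32.1 to 54.2 M assigned reads, so 3 reads correspond to 0.0553 to 0.0933 CPM (reads per 1 M assigned reads), far below the level of every one of the 10 genes. These floors cover counting error only, and the intervals given with differences come from the spread between libraries (limma). All 10 NK marker genes were detected in each group. Their summed levels were 18681 to 22541 CPM in unstimulated, 21289 to 25248 CPM in YFP- and 31215 to 42427 CPM in YFP+ libraries. Most of this sum was granzyme and perforin RNA. The means of Gzmb were 6165, 12849 and 24088 CPM in the 3 groups and those of Prf1 2559, 3424 and 4010. Gzma, the highest in unstimulated cells, went the other way, at 8603, 4483 and 4412 CPM. Of the other NK markers 4 had lower means in treated cells throughout, at 308, 75.3 and 6.50 CPM for Klrb1c, 247, 222 and 123 for Ncr1, 385, 270 and 165 for Klrd1 and 108, 70.5 and 40.7 for Eomes. Klrk1 (188, 282 and 238 CPM) and Tbx21 (33.2, 80.9 and 85.7) had higher means in both treated groups, and Nkg7 was mixed (2515, 1835 and 2864). B cell and erythroid markers summed to at most 0.863 and 0.123 CPM. Summed T cell markers (6 genes, most of it Cd3d, Cd3g and Trac, with Cd4 and Cd8a near 0) were 52.6 to 113 CPM over the 12 libraries. Within that sum Trac had means of 7.43, 34.3 and 48.4 CPM in unstimulated, YFP- and YFP+ cells, while Cd3g had 47.9, 32.5 and 20.6 and Cd3e 0.529, 0.915 and 0.0363. Myeloid markers (5 genes) summed to 51.6 to 59.6 CPM in the unstimulated group; the YFP- group had 27.1 to 43.2 and the YFP+ group 14.3 to 23.6 CPM, with Lyz2 at 0 in YFP- and Adgre1 at 0 in YFP+. Nearly all of it was Cd68, with group means of 55.3, 34.6 and 17.8 CPM. The part of these cells in the results was not tested. Features of ribosomal RNA type, with 3 more high features that may collect such reads, took a median of 30.1% of reads in the unstimulated group, beside 19.4% (YFP-) and 19.7% (YFP+). They were highest in unstimulated m4 at 35.4%, and reached 30.3% in YFP- m3 and 29.8% in YFP+ m3.

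In treated cells the synthesis genes, the antizyme inhibitor, Smox and Dhps had higher CPM than in unstimulated cells, and Sat1 had lower CPM. CPM is a share of the assigned reads, so the amount of RNA per cell was not measured. In YFP- over unstimulated cells 9 of the 10 genes passed the test (limma, Benjamini-Hochberg adjusted p under 0.05), 7 higher and 2 lower. Of 12364 genes tested, 51.1% passed (30.2% higher, 20.9% lower), so the count stands on a wide background. In YFP+ over unstimulated cells 9 of 10 passed, again 7 higher and 2 lower, against 60.8% of all genes (27.5% higher, 33.3% lower). The 10 genes had a median log2 difference of 1.24 in the first comparison and 1.31 in the second, beside medians of 0.14 and -0.03 over all genes tested. Both comparisons use the same 4 unstimulated libraries, and all differences below are on the log2 scale. Between YFP+ and YFP- cells 2 of 10 passed, both higher (Odc1 and Srm), against 21.8% of all genes (3.28% higher, 18.5% lower). Their median difference was 0.02, beside -0.19 over all genes. The ranges of the groups compared did not overlap for 10, 9 and 3 of the 10 genes, beside 52.7%, 54.7% and 22.1% of all genes tested. In bulk RNA, fewer cells that express a gene and less of its RNA per cell cannot be told apart.

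**Figure D1:**
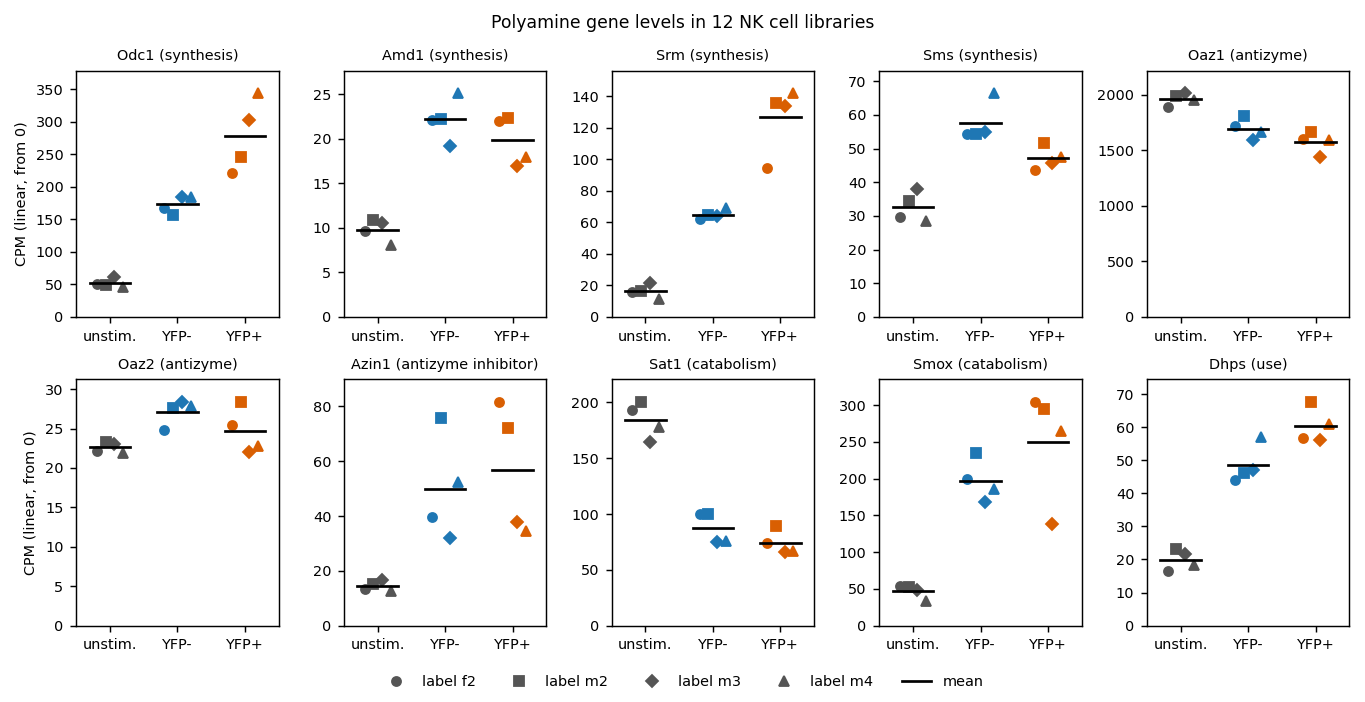
Level of each gene in CPM (linear axis from 0) in the 12 libraries by group, with marker shapes for the labels and a bar at the mean of 4. Odc1 and Srm step up from unstimulated to YFP- to YFP+ without overlap, Sat1 steps down on treatment, and Azin1 and Smox spread widely in treated cells.

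Odc1 (ENSMUSG00000011179, GRCm38 chromosome 12, 17544794 to 17551505, plus strand) makes the enzyme that commits ornithine to polyamines. Unstimulated libraries held 50.4, 49.4, 60.8 and 45.9 CPM in f2, m2, m3 and m4. YFP- libraries held 168, 156, 185 and 184 CPM in the same order. YFP+ libraries held 221, 246, 303 and 344 CPM. The 3 groups did not overlap, and every YFP+ library exceeded every YFP- library. The log2 difference from unstimulated cells was 1.75 (SE 0.15, adjusted p = 8.1e-07) for YFP- and 2.42 (SE 0.15, adjusted p = 1.7e-08) for YFP+ cells, or 3.37-fold and 5.35-fold. YFP+ cells exceeded YFP- cells by 0.67 (SE 0.15, adjusted p = 0.0052), 1.59-fold.

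Srm, which turns putrescine into spermidine (ENSMUSG00000006442, chromosome 4, 148591503 to 148594993, plus strand), had the largest rise of the 10 genes in YFP+ cells. Its levels were 15.9, 16.3, 21.6 and 11.3 CPM in unstimulated f2, m2, m3 and m4. They were 61.9, 65.0, 64.2 and 68.9 CPM in the YFP- libraries and 94.8, 136, 134 and 142 CPM in the YFP+ libraries. The groups did not overlap, the YFP- libraries lay close together, and YFP+ f2 was the low one of its group. The log2 differences were 2.04 (SE 0.18, adjusted p = 1.6e-06) for YFP- and 2.98 (SE 0.18, adjusted p = 1.9e-08) for YFP+ over unstimulated cells. YFP+ exceeded YFP- by 0.95 (SE 0.18, adjusted p = 0.0024), 1.93-fold.

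The other synthesis genes rose on treatment by less, and neither was higher in YFP+ than in YFP- cells. Amd1, the source of the aminopropyl donor (ENSMUSG00000075232, chromosome 10, 40287458 to 40302186, minus strand), held 9.63, 10.9, 10.6 and 8.08 CPM in unstimulated f2, m2, m3 and m4. It held 22.2, 22.3, 19.2 and 25.2 CPM in YFP- and 22.1, 22.4, 16.9 and 18.0 CPM in YFP+ libraries. All 8 treated libraries lay above all unstimulated ones, while YFP- and YFP+ overlapped. It rose by 1.18 (SE 0.15, adjusted p = 2.7e-05) in YFP- and 1.02 (SE 0.15, adjusted p = 4.8e-05) in YFP+ cells on the log2 scale. The YFP+ minus YFP- difference was -0.17 (95% interval -0.49 to 0.15, adjusted p = 0.46).

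Sms, which turns spermidine into spermine (ENSMUSG00000071708, chromosome X, 157443855 to 157492287, minus strand), held 29.6, 34.3, 38.0 and 28.5 CPM in unstimulated f2, m2, m3 and m4. It held 54.4, 54.4, 55.0 and 66.5 CPM in YFP- and 43.5, 51.7, 45.7 and 47.4 CPM in YFP+ libraries. The groups did not overlap, and unlike Odc1 and Srm the YFP+ libraries lay between the other 2 groups. The rise was 0.83 (SE 0.13, adjusted p = 0.00013) in YFP- and 0.54 (SE 0.13, adjusted p = 0.0023) in YFP+ cells. The YFP+ minus YFP- difference of -0.29 (95% interval -0.56 to -0.01) did not pass across all genes (adjusted p = 0.13), and it was -0.03 with libraries centred on their medians.

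Oaz1 (ENSMUSG00000035242, chromosome 10, 80826656 to 80829290, plus strand) had the highest level per kilobase of the 10 genes in every group. Its levels were 1895, 1992, 2018 and 1952 CPM in unstimulated f2, m2, m3 and m4, 1719, 1809, 1593 and 1666 CPM in YFP-, and 1606, 1664, 1437 and 1593 CPM in YFP+ libraries. Every treated library was below every unstimulated one, by a small margin. The log2 difference was -0.21 (SE 0.08, adjusted p = 0.044) in YFP- and -0.32 (SE 0.08, adjusted p = 0.0038) in YFP+ cells, 0.863-fold and 0.801-fold. The YFP- call was lost in 13 of 16 fits that left out a library or a label, where the difference ranged from -0.24 to -0.17, and it was kept without YFP- m2, YFP+ f2 or YFP+ m3. The YFP+ call was lost with median centring (-0.20, adjusted p = 0.064) and with no filter (-0.32, adjusted p = 0.14). Over all 29 alternatives the difference ranged from -0.53 to -0.17 in YFP- and from -0.51 to -0.20 in YFP+ cells, so its size depends on the scaling. Reads could be shared with the pseudogene Oaz1-ps, whose group means were 80.6 (unstimulated), 75.9 (YFP-) and 76.1 CPM (YFP+).

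Oaz2, the second antizyme (ENSMUSG00000040652, chromosome 9, 65668001 to 65690300, plus strand), passed the test in no comparison. The unstimulated libraries held 21.9 to 23.2 CPM, the YFP- libraries 24.8 to 28.3 and the YFP+ libraries 22.0 to 28.4. YFP- libraries did not overlap the unstimulated ones, with a log2 difference of 0.26 (95% interval 0.01 to 0.51, adjusted p = 0.078). The YFP+ difference from unstimulated cells was 0.12 (95% interval -0.13 to 0.37, adjusted p = 0.40), and that from YFP- cells was -0.14 (95% interval -0.39 to 0.11, adjusted p = 0.42). Neither interval reaches the size of the rise of Odc1.

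Azin1, the antizyme inhibitor (ENSMUSG00000037458, chromosome 15, 38487427 to 38519266, minus strand), rose in treated cells but varied most among their libraries. Unstimulated f2, m2, m3 and m4 held 13.3, 15.3, 16.6 and 12.8 CPM. YFP- libraries held 39.5, 75.7, 32.1 and 52.3 CPM, and YFP+ libraries held 81.7, 72.3, 37.9 and 34.7 CPM. All treated libraries exceeded all unstimulated ones, while YFP+ and YFP- overlapped throughout. The rise was 1.71 (SE 0.30, adjusted p = 0.00036) in YFP- and 1.87 (SE 0.30, adjusted p = 0.0001) in YFP+ cells. The YFP+ minus YFP- difference was 0.16 (95% interval -0.49 to 0.80, adjusted p = 0.75), and it turned to -0.05 without YFP+ f2 and to -0.03 without YFP- m3. The 4 treated libraries with the most Azin1 (YFP+ f2 and m2, YFP- m2 and m4) were also those with the most assigned reads, 48.9, 54.2, 49.3 and 49.0 M, and the other 4 held 32.1 to 44.3 M. The part of read depth in this spread was not tested.

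Sat1, the rate-limiting enzyme of polyamine breakdown (ENSMUSG00000025283, chromosome X, 155213132 to 155216449, minus strand), was the only one of the 10 genes to fall by more than 1 log2 unit. Its levels were 193, 201, 164 and 178 CPM in unstimulated f2, m2, m3 and m4. They were 100.2, 100.3, 74.7 and 75.8 CPM in YFP- and 74.2, 89.6, 65.7 and 67.1 CPM in YFP+ libraries. Every treated library was far below every unstimulated one, and the treated groups overlapped. The log2 difference was -1.08 (SE 0.14, adjusted p = 3.9e-05) in YFP- and -1.32 (SE 0.14, adjusted p = 3.0e-06) in YFP+ cells, 0.474-fold and 0.401-fold. The YFP+ minus YFP- difference was -0.24 (95% interval -0.55 to 0.07, adjusted p = 0.26), and 0.02 with median centring.

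Smox, the spermine oxidase (ENSMUSG00000027333, chromosome 2, 131491496 to 131525922, plus strand), moved opposite to Sat1. Unstimulated f2, m2, m3 and m4 held 54.0, 53.1, 49.1 and 33.3 CPM, YFP- libraries 199, 235, 169 and 186 CPM, and YFP+ libraries 304, 294, 138 and 265 CPM. All treated libraries were above all unstimulated ones, and YFP+ m3 lay below all YFP- libraries. The rise was 2.07 (SE 0.24, adjusted p = 1.1e-05) in YFP- and 2.36 (SE 0.24, adjusted p = 1.4e-06) in YFP+ cells, 4.20-fold and 5.14-fold. YFP+ over YFP- was 0.29 (95% interval -0.22 to 0.80, adjusted p = 0.42). It passed without YFP+ m3 (0.55, adjusted p = 0.035) and, with all libraries kept, under median centring (0.55, adjusted p = 0.048). YFP+ m3 was also the YFP+ library with the most reads of ribosomal RNA type (29.8% with the 3 further features), whose part in this value was not tested.

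Dhps, which starts hypusine formation on eIF5A (ENSMUSG00000060038, chromosome 8, 85071757 to 85075162, plus strand), held 16.5, 23.3, 21.8 and 18.2 CPM in unstimulated f2, m2, m3 and m4. It held 43.9, 46.2, 47.0 and 57.1 CPM in YFP- and 56.8, 67.7, 56.1 and 60.9 CPM in YFP+ libraries. Treated libraries did not overlap unstimulated ones, and only YFP- m4 reached into the YFP+ range. It rose by 1.29 (SE 0.14, adjusted p = 7.3e-06) in YFP- and 1.61 (SE 0.14, adjusted p = 3.8e-07) in YFP+ cells. The YFP+ over YFP- difference of 0.32 (95% interval 0.02 to 0.62) did not pass (adjusted p = 0.13), but it passed under trimmed-mean scaling, voom weights, quantile normalization and median centring, at 0.46 to 0.58. Dhps overlaps Wdr83 on the other strand, and the counting's strand setting is not given in the sources used here, so reads of the 2 genes may not be separated.

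**Figure D2:**
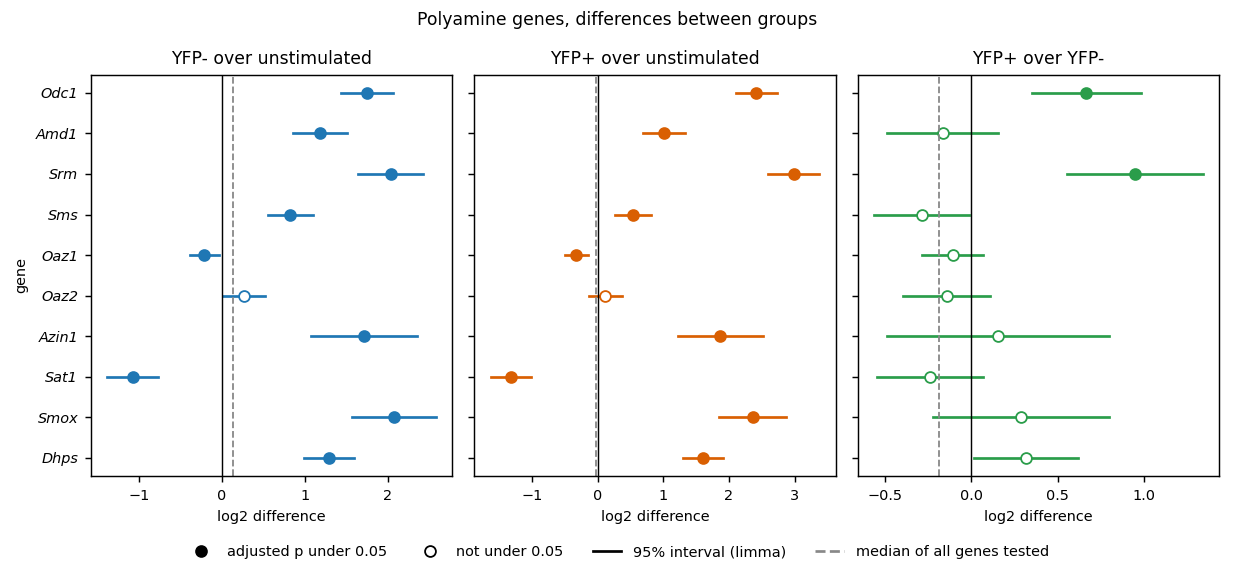
Log2 difference and 95% interval (limma) of each gene in the 3 comparisons, with filled points for adjusted p under 0.05 and a dashed line at the median of all genes tested. On treatment 7 genes lie to the right and Sat1 and Oaz1 to the left, and only Odc1 and Srm are filled in YFP+ over YFP-.

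Library scaling moved the smaller YFP+ over YFP- differences as a block. The median over all genes tested was -0.19 in that comparison. Relative to this median Odc1 was 0.86 and Srm 1.14 higher in YFP+ cells. With libraries scaled by trimmed mean, by quantiles or on their medians the genes shifted upward together, and Amd1, Oaz1 and Oaz2 changed from slightly negative to slightly positive values that did not pass. Of all genes called in this comparison, 15.1% were higher in YFP+ cells as deposited. Median centring put that share at 50.2%, quantile normalization at 44.9% and trimmed-mean scaling at 41.1%. Odc1 ranged from 0.56 to 0.93 and Srm from 0.89 to 1.21 over 29 alternatives, and both passed in each. For YFP- over unstimulated cells, 59.1% of called genes were higher, and 47.1% with the ribosomal RNA-type features and 3 more left out of the totals, an alternative chosen after seeing the data.

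**Figure D3:**
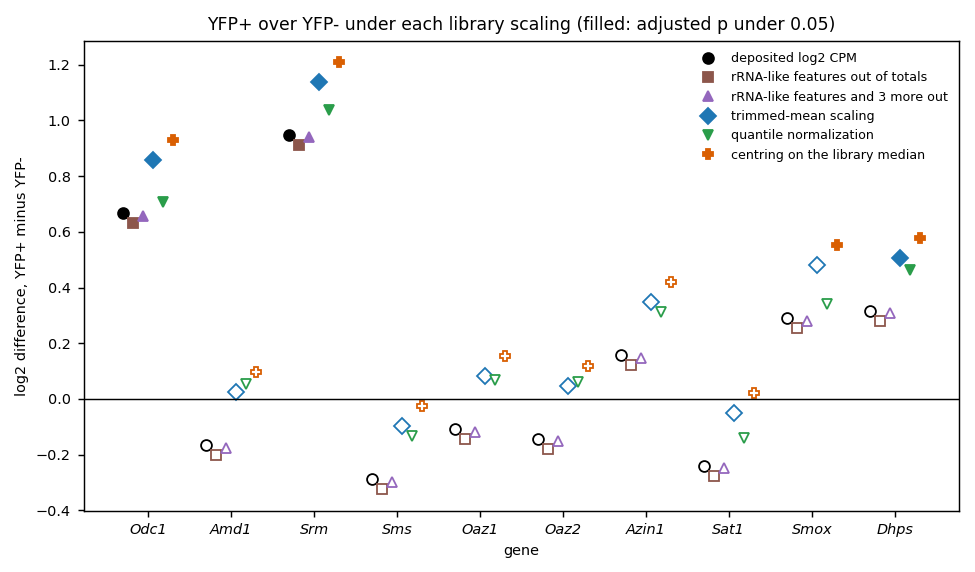
Log2 difference of YFP+ minus YFP- cells for each gene under 6 library scalings, filled where adjusted p was under 0.05. Odc1 and Srm are filled under all 6, Dhps under 3 and Smox under 1, while Amd1, Oaz1 and Oaz2 cross 0.

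A ratio of 2 of these genes within a library does not change when the whole library is multiplied by a factor, though quantile normalization can change it. The ratios are given as descriptions. The log2 ratio of Odc1 to Oaz1, enzyme to antizyme RNA, lay between -5.41 and -5.05 without treatment, between -3.54 and -3.11 in YFP- libraries and between -2.86 and -2.21 in YFP+ libraries. The groups did not overlap, and the mean was 1.96 higher in YFP- and 2.74 higher in YFP+ than in unstimulated cells. Since Oaz1 changed little in the values as deposited (-0.21 and -0.32), most of this shift was the rise of Odc1. The ratio of Azin1 to Oaz1 was -7.25 to -6.92, -5.63 to -4.58 and -5.52 to -4.30 in the same groups, and the treated groups overlapped.

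The log2 ratio of Odc1 to Sat1, the first step of synthesis over the first step of breakdown, changed sign (in CPM not divided by length). It was -2.02, -1.95, -1.94 and -1.44 in the unstimulated libraries, with m3 the highest. It was 0.64 to 1.31 in YFP- and 1.46 to 2.36 in YFP+ libraries, so the groups did not overlap. The mean rose by 2.83 and 3.74 from unstimulated cells. The shift depends on taking Sat1 as the breakdown gene. Smox, the other one, rose by 2.07 in YFP- and 2.36 in YFP+ cells, beside 1.75 and 2.42 for Odc1. The ratio of Srm to Sms, the genes of the 2 successive aminopropyl transfers, separated YFP+ from YFP- cells by more than either gene as deposited. It lay between -1.34 and -0.82 without treatment, between 0.05 and 0.26 in YFP- libraries and between 1.12 and 1.58 in YFP+ libraries, a mean YFP+ minus YFP- difference of 1.24. Srm alone differed by 0.95 as deposited and by up to 1.21 over the 29 alternatives.

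**Figure D4:**
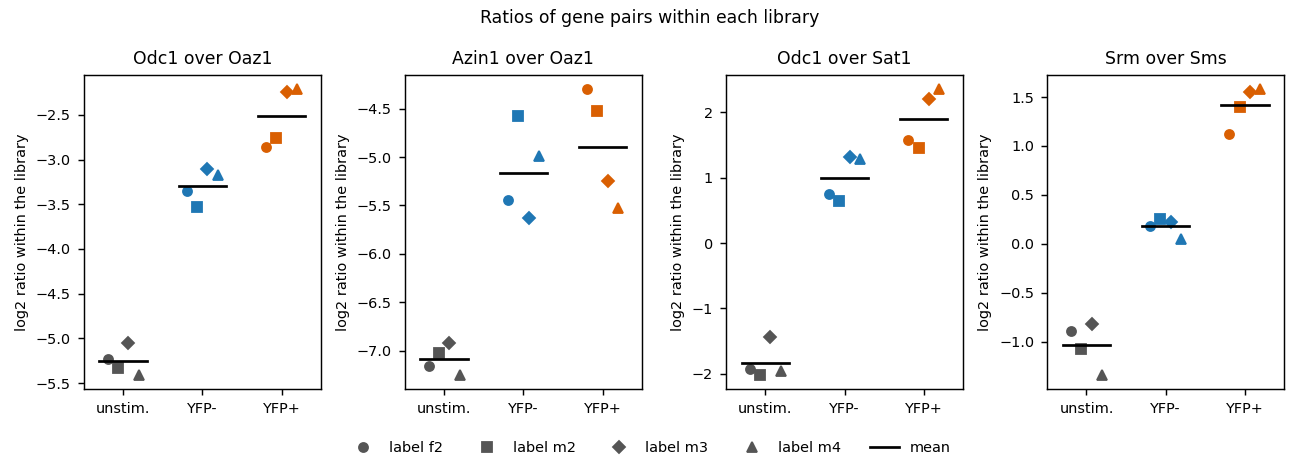
Log2 ratio of 4 gene pairs within each of the 12 libraries, with a bar at the mean of each group of 4. The groups stand apart for Odc1 over Oaz1, Odc1 over Sat1 and Srm over Sms, while YFP- and YFP+ overlap for Azin1 over Oaz1.

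Per kilobase of exon, Oaz1 was the most abundant of the 10 genes in every group, with group means of 768 (unstimulated), 663 (YFP-) and 616 CPM per kb (YFP+). In unstimulated cells Sat1 came next at 66.3 (SD 5.80), well above Odc1 at 15.2 (SD 1.88) and Smox at 12.2 (SD 2.47), whose ranges overlapped. In YFP- cells Odc1 at 50.9 (SD 4.10) and Smox at 50.6 (SD 7.21) came after Oaz1 with overlapping ranges, and Srm followed at 40.7 (SD 1.83). In YFP+ cells Odc1 at 81.8 (SD 16.3), Srm at 79.3 (SD 13.5) and Smox at 64.3 (SD 19.8) overlapped one another, and Sat1 had dropped to 26.7 (SD 3.96) beside Dhps at 26.0 (SD 2.29). Amd1, Azin1, Sms and Oaz2 stayed below 15 CPM per kb in all libraries.

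Genes around the pathway were read from a list of 25 grouped by role, of which 17 passed the filter. In YFP- over unstimulated cells 11 of 17 passed the test (10 higher, 1 lower), and in YFP+ over unstimulated cells 12 of 17 (11 higher, 1 lower), against 51.1% and 60.8% of all genes. Their median differences were 0.68 and 0.72. Of the 4 substrate supply genes tested 2 passed in both comparisons, Mat2a and Slc25a15. Mat2a, whose enzyme makes S-adenosylmethionine, rose by 2.18 (SE 0.25, adjusted p = 1.2e-05) in YFP- and 1.88 (SE 0.25, adjusted p = 2.1e-05) in YFP+ cells. Its regulatory partner Mat2b did not pass, at 0.46 (adjusted p = 0.22) and -0.40 (adjusted p = 0.27). All YFP- libraries (111 to 136 CPM) lay above the unstimulated ones (75.5 to 102 CPM). The YFP+ libraries f2, m2, m3 and m4 held 96.4, 89.7, 28.7 and 86.4 CPM, so m3 alone lay below the unstimulated range. All 5 salvage genes, which recycle the methylthioadenosine left by polyamine synthesis, were tested, and 4 passed in both comparisons, all higher. Of them Mtap, the first enzyme, rose by 1.42 and 1.51 (SE 0.26 each) and Adi1, which acts late in the salvage, by 0.74 and 1.29 (SE 0.15 each). Mri1 was the salvage gene that did not pass, and its YFP+ libraries ranged from 11.4 to 59.7 CPM. Paox, the only gene tested among the listed relatives of the 10 genes, did not pass, at -0.31 (adjusted p = 0.19) in YFP- and -0.39 (adjusted p = 0.091) in YFP+ cells.

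Transport genes moved in both directions. Slc3a2, the heavy chain of amino acid transporters, rose by 2.27 and 2.39 (SE 0.19 each), and the cationic amino acid transporter Slc7a1 by 1.39 and 1.14 (SE 0.16 each) in YFP- and YFP+ over unstimulated cells. Of the P5-type ATPases linked to polyamine transport, Atp13a3 rose in YFP+ cells by 1.07 (SE 0.20, adjusted p = 0.00038), with 0.36 in YFP- cells (adjusted p = 0.15). Atp13a2, at 0.902 to 2.96 CPM in all libraries, fell by 0.75 in YFP- (adjusted p = 0.019) and by 1.12 in YFP+ cells (adjusted p = 0.0012). The YFP- call was lost without unstimulated m3 or m4, YFP- m4 or labels m3 or m4 (-0.68 to -0.52). In the hypusine pathway, Eif5a, the only substrate family of Dhps, rose by 1.09 and 1.27 (SE 0.12 each) from a mean of 1313 CPM. Eif5a2, of the same family, did not pass, at 0.45 (adjusted p = 0.20) in YFP- and 0.46 (adjusted p = 0.17) in YFP+ cells. Dohh, the second hypusine enzyme, was 0.88 and 1.05 higher and passed in both. It falls outside the 8 genes named by size of difference and was chosen after its values were seen.

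Between YFP+ and YFP- cells 2 of the 17 passed, against 21.8% of all genes. Atp13a3 was 0.70 (SE 0.20, adjusted p = 0.022) and Adi1 0.55 (SE 0.15, adjusted p = 0.017) higher in YFP+ cells. The Atp13a3 groups overlapped, and its call was lost without YFP- m2, YFP+ m3, YFP+ m4 or labels m2, m3 or m4 (0.55 to 0.67). That of Adi1 was lost without labels f2, m2 or m4 (0.43 to 0.60). The count was 4 without YFP+ m2, 1 without YFP+ m4, without YFP- m2 or without label f2, and 0 without label m2 or m4. Calls over all genes, 2691 with all libraries, numbered 2702 without YFP+ m2, 2032 without YFP+ m4 and 1966 without YFP- m2. They numbered 1981 without label f2, 1571 without label m2 and 1643 without label m4. The 8 genes below the filter included the arginases Arg1 and Arg2, the antizyme Oaz3 and the inhibitor Azin2. The highest log2 CPM of these 4 was between -3.41 and -0.32, so Azin1 was the antizyme inhibitor and Oaz1 and Oaz2 the antizymes that these libraries held above the filter.

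**Figure D5:**
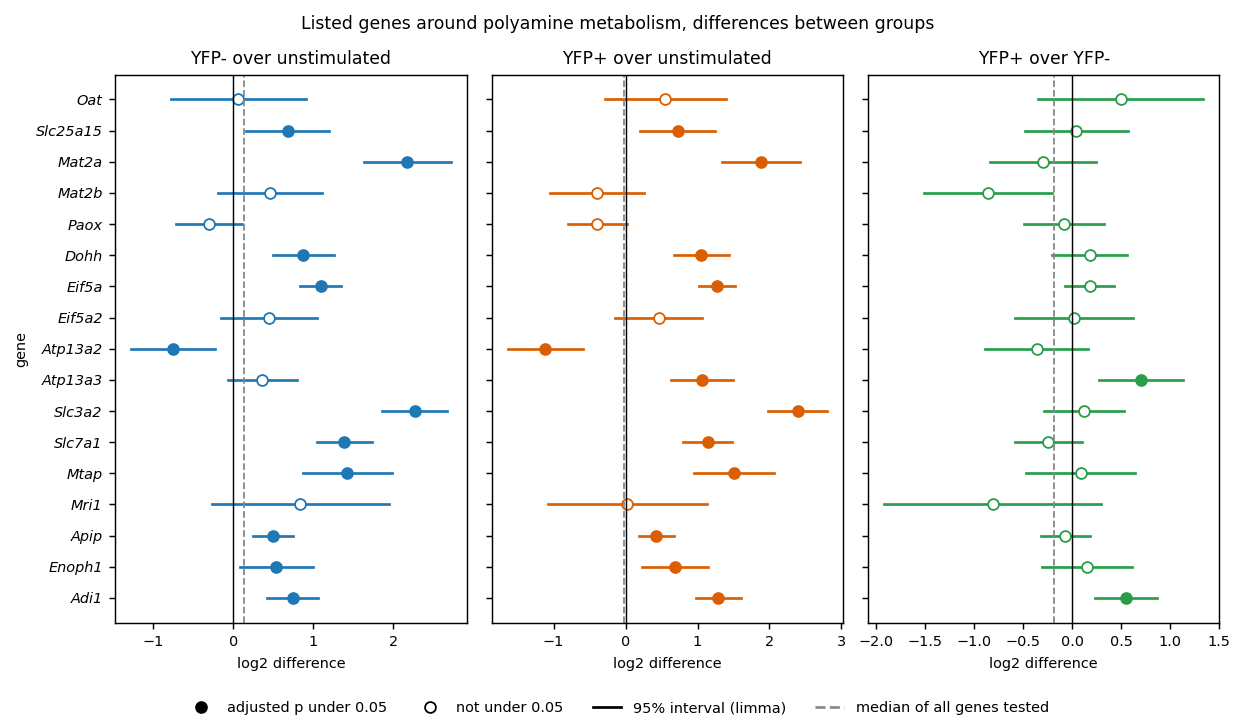
Log2 difference and 95% interval (limma) of the 17 listed pathway genes that passed the filter, filled where adjusted p was under 0.05, with a dashed line at the median of all genes. Slc3a2 and Mat2a lie farthest right on treatment, Atp13a2 lies left, and Atp13a3 and Adi1 are filled in YFP+ over YFP-.

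Over the 12 libraries, the 5 protein-coding genes whose log2 CPM correlated most with Odc1, among 10406 compared, were Slc7a5 (Pearson r = 0.993), Heatr3 (0.991), Crls1 (0.990), Nhp2 (0.989) and Chst2 (0.989). Slc7a5, the partner of Slc3a2 in leucine uptake, had a mean log2 CPM of 6.14, 8.04 and 8.65 in unstimulated, YFP- and YFP+ cells. For Sat1 they were Lpin1 (0.988), Tex264 (0.986), Entpd1 (0.985), Efhd2 (0.985) and Srebf2 (0.985). Srebf2, a regulator of cholesterol genes, had means of 7.02, 5.93 and 5.57. The 12 points share 3 groups and the same libraries, so any gene with the same order of group levels scores high.

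Copies may bear on a few values. They were looked for by gene name, for Amd1, Oaz1, Oaz2 and Sms only, and how alike their sequences are was not measured. Sms-ps held 2.41, 3.69 and 3.95 CPM on average in the 3 groups and Amd2 0.287, 0.524 and 0.621, small beside Sms and Amd1. Azin1 overlaps Gm49077 on the other strand and Mir6951, Odc1 overlaps Gm22748, and Oaz1 overlaps Mir1982, so their reads are uncertain to the extent that the counting could not split them.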

How the data were processed

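RNA-seq of 12 libraries (10 ng total RNA, SMARTer Ultra Low kit, paired 150-base reads, per the labels' protocols) was aligned with STAR 2.7.9a and counted with featureCounts 2.0.3 on GRCm38, per the submitters' processing notes. The annotation, strand setting and treatment of multi-mapped reads are not given in the sources used here. The values used are moderated log2 CPM in 1 table, as the authors deposited it. After 287 repeated lines were dropped, 55487 features were left, and 100.0% of values gave whole reads within 1e-6. Genes with log2 CPM above 0 in at least 4 libraries were fitted with limma 3.58.1 (R 4.3.3, empirical Bayes with a trend, all 12 libraries), tested for the 3 differences and adjusted by Benjamini-Hochberg over all 12364. A gene passed at an adjusted p under 0.05. The fit was tested on simulated data. CPM in the text is reads per 1 M assigned reads, and lengths are union exons of GENCODE M21 (99.4% of features matched). No 2 libraries of a group agreed within counting noise. Genes were named by rule: the 10 genes, up to 8 listed pathway genes called with a difference of at least 1, and the 5 genes most correlated with Odc1 and with Sat1. Other listed genes given in the text, among them Dohh, Slc25a15, Mat2b, Mri1, Eif5a2 and Paox, fall outside this rule and were added with their values known. The genes and lists were chosen with earlier results of these data known. Alternatives covered scaling, filter, pseudocount, weights, the fitted samples, thresholds, a block on the label, and leaving out each library and label.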

Additional observations from a re-analysis of the deposited data

Results flagged for a closer look

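Of 66 sets of 4 libraries examined (10 genes, 8 pathway genes and 4 ratios in 3 groups), 4 held a library whose gap to its nearest neighbour, as a share of the whole range, was above Dixon's 95% critical value. Chance gives about 1 in 20, or 3.3 of 66. Srm in YFP+ f2 was the lowest of its group, with a log2 CPM of 6.57 against 7.07 to 7.15 (share 0.858). Sms in YFP- m4 was the highest, with 6.05 against 5.77 to 5.78 (share 0.942). Slc3a2 in unstimulated m4 was the lowest, with 6.87 against 7.41 to 7.46 (share 0.906). The log2 ratio of Odc1 to Sat1 in unstimulated m3 was the highest, with -1.44 against -2.02 to -1.94 (share 0.856).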

How the results depend on the processing

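Of 30 differences (10 genes in 3 comparisons), 20 kept their direction and their side of the threshold under all 29 alternatives, and of 870 values 18 lost the call, 6 gained it and 17 changed sign. No called difference of the 10 genes changed sign. In YFP+ over YFP- cells, quantile normalization, median centring, trimmed-mean scaling and voom weights gave Amd1 0.053, 0.096, 0.024 and 0.032, Oaz1 0.068, 0.154, 0.082 and 0.082, and Oaz2 0.060, 0.120, 0.048 and 0.058. Quantile normalization gave Atp13a2 0.034, and median centring gave Sat1 0.023 and Slc7a1 0.019. Oaz2 in YFP+ over unstimulated cells was -0.072 with the ribosomal RNA-type features and 3 more left out. For YFP+ over YFP- cells, leaving out a library or label gave -0.14 to 0.41 for Azin1 and -0.073 to 0.33 for Mtap. The ratio of Azin1 to Oaz1 ranged from -0.029 to 0.53 in the same comparison and fits. Oaz1 in YFP- over unstimulated cells had adjusted p values from 0.00011 to 0.49 over the alternatives, and Dhps in YFP+ over YFP- cells from 0.0091 to 0.40. The cause was not tested.

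In YFP+ over YFP- cells, genes called numbered 2691, and 1583 with no filter, 1466 at adjusted p under 0.01, 1256 with a difference of at least 1, and 1571 to 3193 with a library or label left out (1571 without label m2, 1643 without label m4). All genes gave 2996 calls with median centring, 2830 with sample weights and 1956 with only the 8 samples compared. The 10 genes gave 4 calls with median centring and 0 with a difference of at least 1. The pathway list gave 0 calls with only the 8 samples compared, with no filter, at adjusted p under 0.01 and with a difference of at least 1, 4 with median centring and with sample weights, and 0 to 4 with a library or label left out. With a difference of at least 1, genes called in YFP- and YFP+ over unstimulated cells numbered 3239 and 4547, and the pathway list gave 5 in the first.

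Libraries with the same label were not taken as pairs, since the labels do not give a shared mouse or batch and not every pair correlated above 0.1, which does not show that they are unrelated. Same-label correlations of deviations from group means were -0.06 to 0.10, -0.04 to 0.38 and 0.05 to 0.37 in the 3 comparisons, over 0.1 in 1, 2 and 3 of 4 pairs, and 1, 2 and 3 of 4 libraries correlated best with their own label. With a replicate block the 10 genes gave 9, 9 and 2 calls, the same counts as without it, and all genes 6682, 7774 and 3098. The 10 genes had 262 or more reads in every library, and the part of read depth in the spread of Azin1 was not tested.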
